A study of Mus musculus with 10 samples.

Results

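The Slc25a genes encode the solute carrier family that sits mostly in the inner mitochondrial membrane. They were taken as every gene whose single annotated symbol starts with Slc25a, which gave 43 of the 17991 genes that the arrays name with a single symbol. Their 52 single-symbol probes all entered the test, and 9 genes had a second probe. The probe with the highest mean stood for its gene, and 2 probes that list an Slc25a symbol beside another gene were left out. Tissue was abdominal aorta from male ApoE-/- animals aged 14 weeks, a strain without apolipoprotein E that is prone to atherosclerosis. Aortas were pooled by 2 mice, and 5 such pools (numbered 1, 6, 8, 11 and 12) were each split at the renal arteries into an infrarenal segment, lying below, and a suprarenal segment, lying above. Infrarenal aorta thus has 5 arrays, suprarenal aorta 5. Both groups carry the ApoE-/- genotype, so no group of normal mice enters.

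Mitochondrial carriers are small proteins that span the inner membrane and mostly exchange a solute of the matrix for a solute of the cytosol. They let ADP in and ATP out, bring in phosphate, fatty acids as acylcarnitines, amino acids and cofactors, and carry citrate and reducing equivalents between the compartments. Tissues that burn much fat or make heat, such as brown adipose tissue and heart, hold many mitochondria and much carrier protein, and the fat around the aorta can hold brown adipocytes.

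Values are intensities that the authors scaled to an array median near 1, given here as log2, so 0 is close to the median probe. Levels of different probes are not compared. Smooth muscle markers, those of the aortic wall, were bright on all arrays: the summed intensity of 9 markers lay between 1530 and 1660 on infrarenal arrays and between 1520 and 1630 on suprarenal arrays. Markers of other cells were present too. The brown adipocyte score, the mean log2 intensity of the marker genes measured on all arrays, lay between 2.53 and 4.22 on infrarenal arrays and between 2.34 and 4.54 on suprarenal arrays. Suprarenal array 12 stood apart with the lowest score of all arrays (2.34, the other 4 suprarenal arrays at 4.10 to 4.54), and its partner, infrarenal array 12, read 3.48. In pools 6, 8 and 11 the infrarenal array had the lower score, in pool 12 the higher, and in pool 1 both arrays were close (4.22 infrarenal, 4.15 suprarenal). The smooth muscle sums do not tell the regions apart, and whether suprarenal array 12 differs in its label or in its dissection was not tested. That open question bears on every pool 12 difference. The counts over the family and the differences of several carriers are therefore also given without pool 12. Of 36061 probes tested over the whole table with limma and the pool as a block, 0 were higher and 0 lower after adjustment, with a smallest adjusted p of 0.11, while 2726 had an unadjusted p under 0.05.

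The comparison asked whether carrier genes are expressed at another level below the kidney arteries than above them in the same animals. No Slc25a gene passed the test in either direction (0 of 43, as over all genes with 0.0% higher and 0.0% lower), and the adjusted p ran between 0.639 and 0.998. The fitted difference, infrarenal minus suprarenal, lay below 0 for 34 of 43 genes (79.1%), against 60.4% of all genes. Its median was -0.17 log2 units over the carriers and -0.049 over all genes. Outside the dimmest 30% of probes it lay below 0 for 29 of 34 carriers (85.3%), against 66.5% of genes. The medians there were -0.172 and -0.065. Without pool 12 it lay below 0 for 32 of 43 carriers (74.4%), against 57.5% of all genes. After quantile normalization 29 of 43 (67.4%) lay below 0, against 49.7% of all genes. An unadjusted p under 0.05 was reached by 3 carriers on the lower side (Slc25a46, Slc25a17 and Slc25a32; 6.98%), close to the 5.89% of all genes, and by 0 on the higher side, where all genes gave 2.17%. After quantile normalization, and in the fit without a variance trend, only Slc25a46 and Slc25a2 reached it, so Slc25a17 and Slc25a32 did not. The 5 infrarenal values were all below the 5 suprarenal values, or all above, for 0 carriers, against 0.884% and 0.372% of all genes. The number of arrays limits the precision, and the 95% interval of a carrier's difference had a median half-width of 0.33 log2 units, or 0.29 over the 34 carriers outside the dimmest 30% of probes (a mean log2 intensity of at least -1.59). The other 9 carriers were Slc25a2, Slc25a18, Slc25a21, Slc25a30, Slc25a34, Slc25a40, Slc25a42, Slc25a48 and Slc25a53. In bulk tissue, fewer cells of a type and less RNA per cell cannot be told apart.

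**Figure D1:**
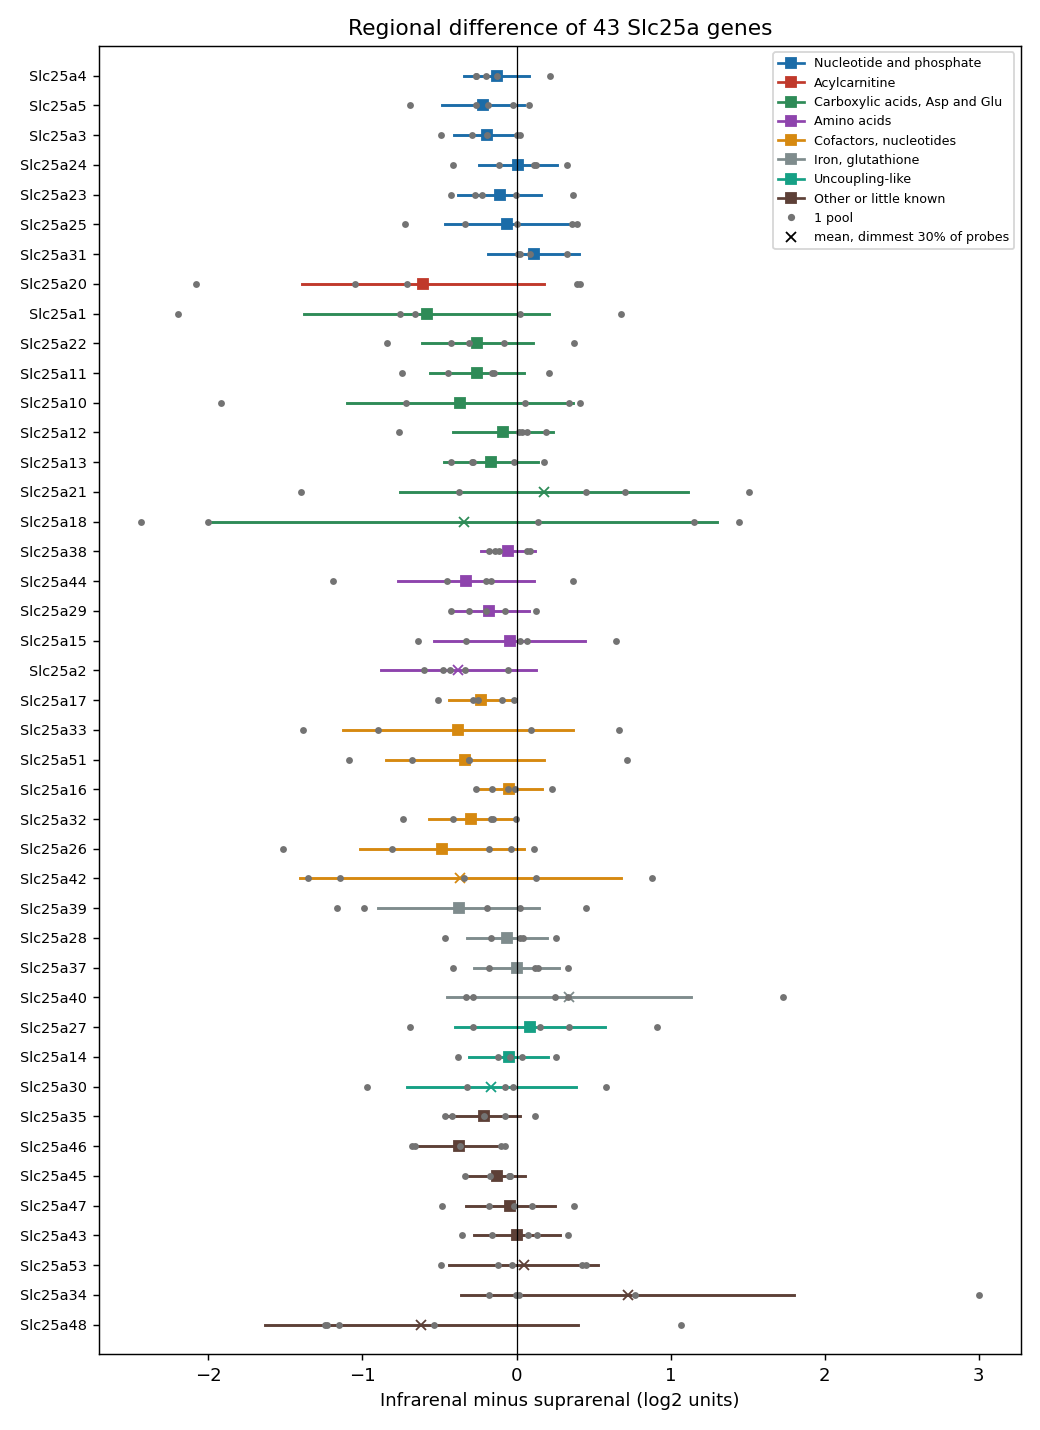
Regional difference of the 43 Slc25a genes in log2 units, infrarenal minus suprarenal, ordered by role group. Squares are fitted means, crosses the same for genes in the dimmest 30% of probes, lines the 95% interval and grey dots the single pools. Only the lines of Slc25a46, Slc25a17 and Slc25a32 stay below 0, and the dots of Slc25a20 and Slc25a1 reach from about -2 to above 0.

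The promoters of 4 carriers are shown. Slc25a1, Slc25a20 and Slc25a33 are among the 4 brighter carriers that spanned more than 4-fold over the arrays, and Slc25a4 spanned 1.51-fold. A link between promoter sequence and array readings was not tested. The other of those 4, Slc25a10, is not shown. Each sequence covers 250 bases before to 50 after the gene's start in RefSeq GRCm38.p6, written 5′ to 3′ on the gene's strand, with matches to 5 motifs in capitals.
Slc25a1 chr16:17928170-17928469 minus strand: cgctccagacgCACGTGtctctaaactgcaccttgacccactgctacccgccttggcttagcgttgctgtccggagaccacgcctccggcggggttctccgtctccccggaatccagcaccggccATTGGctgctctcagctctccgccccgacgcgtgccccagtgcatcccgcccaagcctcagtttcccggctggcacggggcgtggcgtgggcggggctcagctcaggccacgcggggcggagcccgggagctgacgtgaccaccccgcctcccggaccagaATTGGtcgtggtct
Slc25a20 chr9:108661886-108662185 plus strand: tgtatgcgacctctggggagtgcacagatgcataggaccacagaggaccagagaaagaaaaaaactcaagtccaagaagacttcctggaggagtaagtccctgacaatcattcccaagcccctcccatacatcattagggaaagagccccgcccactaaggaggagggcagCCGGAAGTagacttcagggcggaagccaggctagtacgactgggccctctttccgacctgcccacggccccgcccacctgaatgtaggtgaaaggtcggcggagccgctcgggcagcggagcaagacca
Slc25a33 chr4:149774218-149774517 minus strand: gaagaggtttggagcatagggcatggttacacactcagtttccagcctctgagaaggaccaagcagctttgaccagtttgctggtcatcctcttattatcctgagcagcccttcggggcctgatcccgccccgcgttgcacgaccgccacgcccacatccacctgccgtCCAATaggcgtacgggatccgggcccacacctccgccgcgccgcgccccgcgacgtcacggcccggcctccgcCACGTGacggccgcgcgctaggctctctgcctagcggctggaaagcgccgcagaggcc
Slc25a4 chr8:46211013-46211312 minus strand: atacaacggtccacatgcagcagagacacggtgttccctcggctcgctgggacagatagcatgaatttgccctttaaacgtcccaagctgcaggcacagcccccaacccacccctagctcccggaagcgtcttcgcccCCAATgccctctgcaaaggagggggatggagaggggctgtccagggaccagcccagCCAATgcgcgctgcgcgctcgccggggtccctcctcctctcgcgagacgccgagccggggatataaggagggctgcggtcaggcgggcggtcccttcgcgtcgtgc
The motifs were CACGTG (an E-box), CCGGAAGT (an ETS site), CCAAT, the NRF1 palindrome and TNAAGGTCA (an oestrogen-related receptor site), sought on both strands, with ATTGG the complement of CCAAT. Of 43 carriers, 34 matched the RefSeq table, with 44 promoters. CACGTG stood in 15.9% of these promoters, in 6 genes among them Slc25a1, at -239, and Slc25a33, at -8, against 7.15% of all 32851 promoters. CCAAT stood in 47.7% of the carriers' promoters, against 37.4% of all, and in Slc25a4 it occurred at -112 and -56. CCGGAAGT was found only in Slc25a20, at -79, which is 2.27% of the carriers' promoters against 3.89% of all. The NRF1 palindrome stood in 4.55%, against 4.60% of all, and TNAAGGTCA in 0.0%, against 1.28%. These are matches of letters and do not show that a factor binds there.

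The fitted differences of the carriers of energy metabolism lay between -0.22 and 0.11 log2 units. Larger differences are not excluded, as the interval reached down to -0.48 for Slc25a5 and up to 0.41 for Slc25a31. Slc25a4, the ADP/ATP exchanger of heart and muscle, read 7.70, 7.11, 7.23, 7.31 and 7.31 on infrarenal arrays of pools 1, 6, 8, 11 and 12, against 7.49, 7.24, 7.49, 7.51 and 7.58 on suprarenal arrays. The regions overlapped, the infrarenal array was the lower of the pair in 4 of 5 pools, and the difference was -0.13 ± 0.09 (SE; adjusted p = 0.694 with limma). Over all 10 arrays the gene spanned 1.51-fold. Slc25a5, a second ADP/ATP exchanger, differed by -0.22 ± 0.11 (adjusted p = 0.649), and Slc25a3, the phosphate carrier that feeds ATP synthase, by -0.19 ± 0.09 (adjusted p = 0.642). The calcium-sensitive ATP-magnesium/phosphate carriers lay close to 0: Slc25a24 at 0.0090 ± 0.11, Slc25a23 at -0.11 ± 0.12 and Slc25a25 at -0.062 ± 0.17. In all, 5 of the 7 measured energy carriers had a fitted difference below 0 (median -0.11), against 60.4% of all genes. Slc25a31, the testis-type ADP/ATP exchanger, was above 0 at 0.11 ± 0.13. It was missing on infrarenal array 8, so 4 pools entered its fit.

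The acylcarnitine carrier Slc25a20, which brings long-chain fatty acids into the matrix for beta-oxidation, varied far more. It read 4.37, 2.35, 3.08, 3.03 and 2.84 on infrarenal arrays of pools 1, 6, 8, 11 and 12, and 3.98, 4.43, 3.79, 4.08 and 2.42 on suprarenal arrays. The lowest readings came from infrarenal array 6 and suprarenal array 12, the highest from suprarenal array 6 and infrarenal array 1, and the regions overlapped over nearly their whole range. The difference was -0.61 ± 0.34 (adjusted p = 0.654), lower in infrarenal aorta in 3 of 5 pools, and the gene spanned 4.23-fold over the arrays. Without pool 12 it was -0.86 ± 0.33 (adjusted p = 0.435), and without pool 6 -0.24 ± 0.26 (adjusted p = 0.941).

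**Figure D2:**
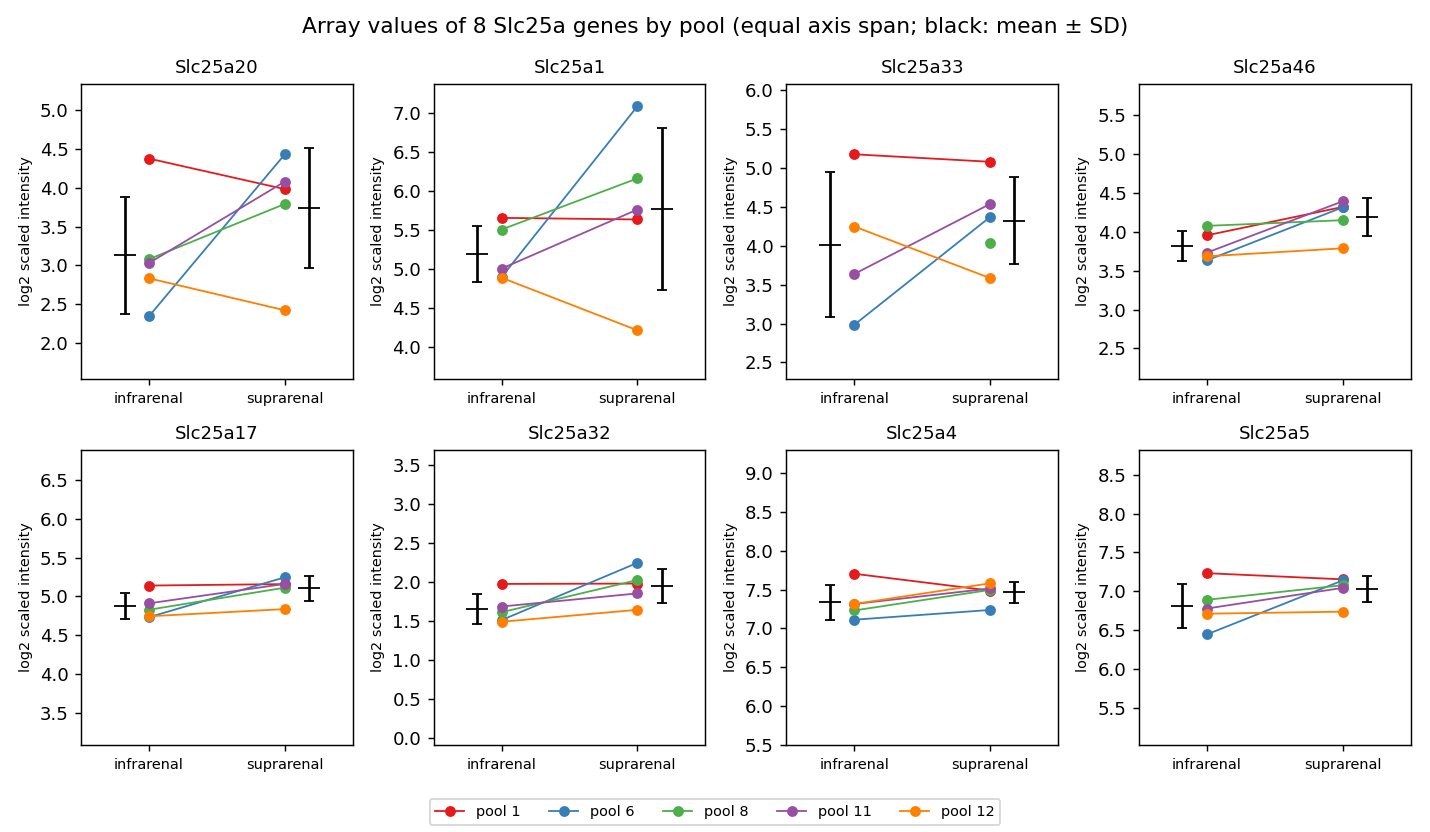
Log2 scaled intensity of 8 Slc25a genes on each array, infrarenal left and suprarenal right, with a line for each pool and black marks for the mean ± SD; each panel spans the same number of log2 units. Slc25a20, Slc25a1 and Slc25a33 scatter between pools, with pool 12 running against pools 6 and 11, while Slc25a4, Slc25a17 and Slc25a32 stay close together.

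Carriers of citrate, dicarboxylates, aspartate and glutamate link the tricarboxylic acid cycle to the cytosol. Slc25a1, the citrate carrier that supplies carbon for fatty acid synthesis, had the widest range of the brighter carriers, 7.36-fold. It read 5.66, 4.90, 5.51, 5.0 and 4.89 on infrarenal arrays and 5.64, 7.09, 6.16, 5.76 and 4.21 on suprarenal arrays, in the same pool order. The high reading of suprarenal array 6 and the low one of suprarenal array 12 set both ends of that range, and the difference of -0.58 ± 0.35 (adjusted p = 0.660) became -0.90 ± 0.31 without pool 12 (adjusted p = 0.405) and -0.18 ± 0.23 without pool 6 (adjusted p = 0.946). Slc25a10, the dicarboxylate carrier, read 2.79, 2.08, 2.48, 2.18 and 2.08 on infrarenal arrays and 2.38, 4.0, 3.20, 2.12 and 1.74 on suprarenal arrays. Suprarenal array 6 was again the highest by far, and the difference was -0.36 ± 0.32 (adjusted p = 0.740). The oxoglutarate carrier Slc25a11 (-0.26 ± 0.13), the glutamate carrier Slc25a22 (-0.26 ± 0.16) and the aspartate-glutamate carriers Slc25a12 (-0.090 ± 0.14) and Slc25a13 (-0.17 ± 0.13) also lay below 0. Slc25a18, a second glutamate carrier, was at the floor on 3 arrays. In this group 7 of 8 genes lay below 0, against 60.4% of all genes, with a median of -0.26.

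Carriers of amino acids were all below 0 (5 of 5, median -0.18), against 60.4% of all genes, and 0 of them passed the test. Slc25a2, an ornithine carrier within the dimmest 30% of probes, read -2.75, -1.9, -2.34, -2.83 and -2.50 on infrarenal arrays and -2.15, -1.47, -1.86, -2.50 and -2.44 on suprarenal arrays. The infrarenal value was the lower in all 5 pools, but the regions overlapped and the difference of -0.38 ± 0.22 did not pass (adjusted p = 0.658). Slc25a15, the main ornithine carrier of the urea cycle, read -1.16, -1.5, -1.56, -1.48 and -1.65 on infrarenal arrays and -1.23, -0.86, -2.21, -1.15 and -1.68 on suprarenal arrays. Its suprarenal values held both the highest and the lowest, and the difference was -0.045 ± 0.21 (adjusted p = 0.960). Slc25a44, a carrier of branched-chain amino acids that brown fat uses as fuel, differed by -0.33 ± 0.19, Slc25a29, a carrier of basic amino acids, by -0.18 ± 0.11, and Slc25a38, a glycine carrier needed for haem synthesis, by -0.056 ± 0.076.

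Carriers of cofactors and nucleotides held 2 of the 3 genes with an unadjusted p under 0.05, where 5.89% of all genes were lower at that p. All 7 measured members lay below 0 (median -0.33), against 60.4% of all genes and 66.5% of those outside the dimmest 30%. Slc25a17, which carries coenzyme A and related cofactors in the peroxisomal membrane, read 5.14, 4.73, 4.83, 4.91 and 4.74 on infrarenal arrays and 5.16, 5.25, 5.11, 5.16 and 4.84 on suprarenal arrays. It was lower in infrarenal aorta in all 5 pools, though by only 0.019 log2 units in pool 1, and the difference was -0.23 ± 0.09 (adjusted p = 0.639), or -0.097 after quantile normalization (adjusted p = 0.798). Slc25a32, the folate and FAD carrier, read 1.98, 1.51, 1.61, 1.69 and 1.49 on infrarenal arrays and 1.98, 2.25, 2.03, 1.85 and 1.64 on suprarenal arrays. It too was lower in all 5 pools, and all but indistinguishable in pool 1, with a difference of -0.30 ± 0.12 (adjusted p = 0.639).

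Slc25a33, which carries pyrimidine nucleotides for mitochondrial DNA and RNA synthesis, read 5.18, 2.98, 3.64 and 4.25 on infrarenal arrays 1, 6, 11 and 12, and 5.08, 4.37, 4.04, 4.54 and 3.59 on suprarenal arrays. It was missing on infrarenal array 8, so 4 pools entered the fit, and the difference was -0.38 ± 0.32 (adjusted p = 0.732). Its second probe, measured on all arrays, gave -0.38 ± 0.30. Slc25a26, which imports S-adenosylmethionine for mitochondrial methylation, read 1.16, -0.20, 0.61, 0.26 and 0.43 on infrarenal arrays and 1.20, 1.32, 0.79, 1.06 and 0.31 on suprarenal arrays. Infrarenal array 6 lay below all the others, and the difference was -0.49 ± 0.23 (adjusted p = 0.639), or -0.23 ± 0.17 without pool 6 (adjusted p = 0.939). Slc25a51, the NAD carrier, differed by -0.33 ± 0.22, by -0.60 ± 0.14 without pool 12 (adjusted p = 0.383) and by -0.15 ± 0.21 without pool 6 (adjusted p = 0.948). Slc25a16 differed by -0.051 ± 0.095.

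Of the 4 carriers of iron and glutathione, 2 had a fitted difference below 0, against 60.4% of all genes, and 0 passed the test. Slc25a39, which carries glutathione into the matrix, differed by -0.37 ± 0.23 (adjusted p = 0.661), and Slc25a40, a dim gene of the same function, by 0.34 ± 0.34. The mitoferrins, which import iron, lay close to 0, Slc25a28 at -0.062 ± 0.11 and Slc25a37 at 0.0015 ± 0.12. Of the carriers related in sequence to uncoupling proteins, Slc25a14 (-0.051 ± 0.11) and Slc25a27 (0.087 ± 0.21) also lay close to 0, and Slc25a30 was within the dimmest 30% of probes.

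Among the remaining carriers Slc25a46, an outer membrane protein linked to mitochondrial shape, had the smallest p of the family. It read 3.95, 3.63, 4.08, 3.73 and 3.68 on infrarenal arrays and 4.32, 4.31, 4.15, 4.39 and 3.79 on suprarenal arrays. The infrarenal value was the lower in all 5 pools, yet infrarenal arrays 1 and 8 stood above suprarenal array 12, so the regions overlapped. The difference was -0.38 ± 0.11 (95% interval -0.64 to -0.11), with an unadjusted p of 0.0109 and an adjusted p of 0.639. Without pool 12 it was -0.44 ± 0.12 (adjusted p = 0.383), and without pool 6 -0.30 ± 0.12 (adjusted p = 0.939). Slc25a45 read 3.63, 3.41, 3.44, 3.55 and 3.58 on infrarenal arrays and 3.68, 3.45, 3.77, 3.72 and 3.63 on suprarenal arrays. It spanned 1.29-fold, the narrowest range of the brighter carriers, and its difference of -0.13 ± 0.08 did not pass (adjusted p = 0.664). With Slc25a46, Slc25a17, Slc25a32 and Slc25a2 it made 5 carriers lower in all 5 pools (11.6%), against 6.23% of all genes; 0 were higher in all 5, against 2.92%. Slc25a35 differed by -0.21 ± 0.10, Slc25a43 by 0.0051 ± 0.12 and Slc25a47, a liver carrier, by -0.041 ± 0.13. Slc25a34 gave the largest fitted value, 0.72 ± 0.47, which rests on suprarenal array 6, where the gene was at the floor of -5.17: without pool 6 it was 0.15 ± 0.25. Slc25a48, a dim choline carrier, gave the lowest, -0.62 ± 0.44.

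Of the 34 brighter carriers, 12 spanned more than 1 log2 unit over the arrays and 5 more than 1.5, where 20.9% and 8.10% of all equally bright genes did. Infrarenal array 6 held the lowest reading of 12 of them, against 19.3% of all genes, and suprarenal array 6 the highest reading of 16, against 17.6% of all genes. Pool 6 thus held the widest gap: the median carrier differed by -0.43 there, by -0.27 in pool 11, by -0.20 in pool 8, by 0.0090 in pool 1 and by 0.023 in pool 12. Over all genes these medians were -0.026, -0.048, -0.103, 0.026 and -0.060 in the same pool order. Leaving out pool 12 raised the carriers with an unadjusted p under 0.05 to 13 on the lower side, against 8.97% of all genes, Slc25a51, Slc25a1, Slc25a39 and Slc25a20 among them. On the higher side 0 carriers reached it, against 3.77% of all genes. The count was 8 lower without pool 1, where 7.82% of all genes were lower and 1.61% higher. It was 1, Slc25a46, without pool 6 (2.62% of all genes lower and 1.37% higher), without pool 8 (2.63% lower and 2.26% higher) and without pool 11 (4.47% lower and 1.77% higher). In each of these fits 0 carriers were higher at that p and 0 passed after adjustment. Without pool 6 the difference of Slc25a10 turned to 0.023 ± 0.19 and that of Slc25a33 was -0.047 ± 0.28. Slc25a39 then differed by -0.18 ± 0.21, Slc25a44 by -0.11 ± 0.14, Slc25a22 by -0.11 ± 0.14, Slc25a11 by -0.13 ± 0.12, Slc25a5 by -0.10 ± 0.09 and Slc25a32 by -0.18 ± 0.11, each at least 1.5 times closer to 0 than with all pools.

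**Figure D3:**
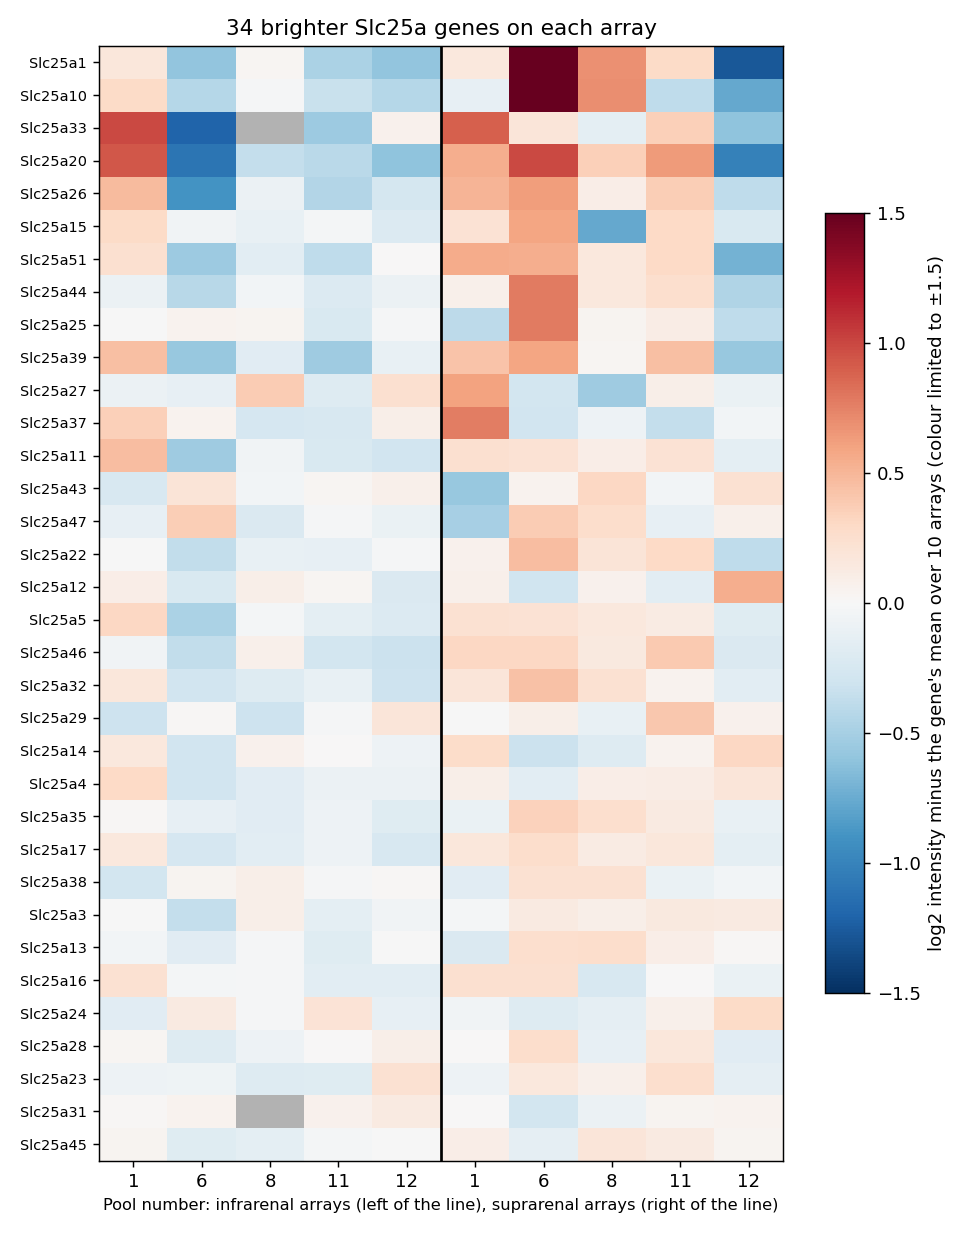
Log2 intensity of each of the 34 brighter Slc25a genes on each array, minus the gene's mean over the 10 arrays, with infrarenal arrays left of the line and suprarenal arrays right of it (numbers are pools; grey is missing; colour is limited to ±1.5). Infrarenal array 6 and suprarenal array 12 are mostly low in the upper rows, and suprarenal array 6 is mostly high.

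Adipocyte markers were lowest on the arrays where Slc25a20 was lowest, and the other marker lists had other patterns. Of the brown adipocyte markers 12 of 12 were measured, and 11 had a fitted difference below 0, against 60.4% of all genes. Dio2 was missing on infrarenal array 1, so the sum covers the 11 markers measured on all arrays. It lay between 229 and 949 on infrarenal arrays and between 216 and 1130 on suprarenal arrays, with Zic1 at the floor on some array. The sum was 229 on infrarenal array 6 and 216 on suprarenal array 12, the arrays on which Slc25a20 was lowest, and 1080 on suprarenal array 6. General adipocyte markers (9 of 11 measured, all 9 below 0) summed to 640 to 1090 on infrarenal and 617 to 1320 on suprarenal arrays. Skeletal muscle markers (17 of 18 measured) ranged from 116 to 729 on infrarenal and from 63.0 to 878 on suprarenal arrays, the highest being suprarenal array 12. Their part in the carrier readings was not tested. Sympathetic neuron and chromaffin markers (11 of 13 measured) summed to 69.8 to 203 on infrarenal and 78.9 to 353 on suprarenal arrays, and endothelial markers (7 of 7) to 99.3 to 154 on infrarenal and 115 to 147 on suprarenal arrays. Liver markers (5 of 6) stayed between 1.99 and 5.97 on infrarenal and between 1.44 and 10.8 on suprarenal arrays. Kidney markers (5 of 7 measured) stayed between 2.25 and 2.86 on infrarenal and between 1.80 and 2.41 on suprarenal arrays.

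**Figure D4:**
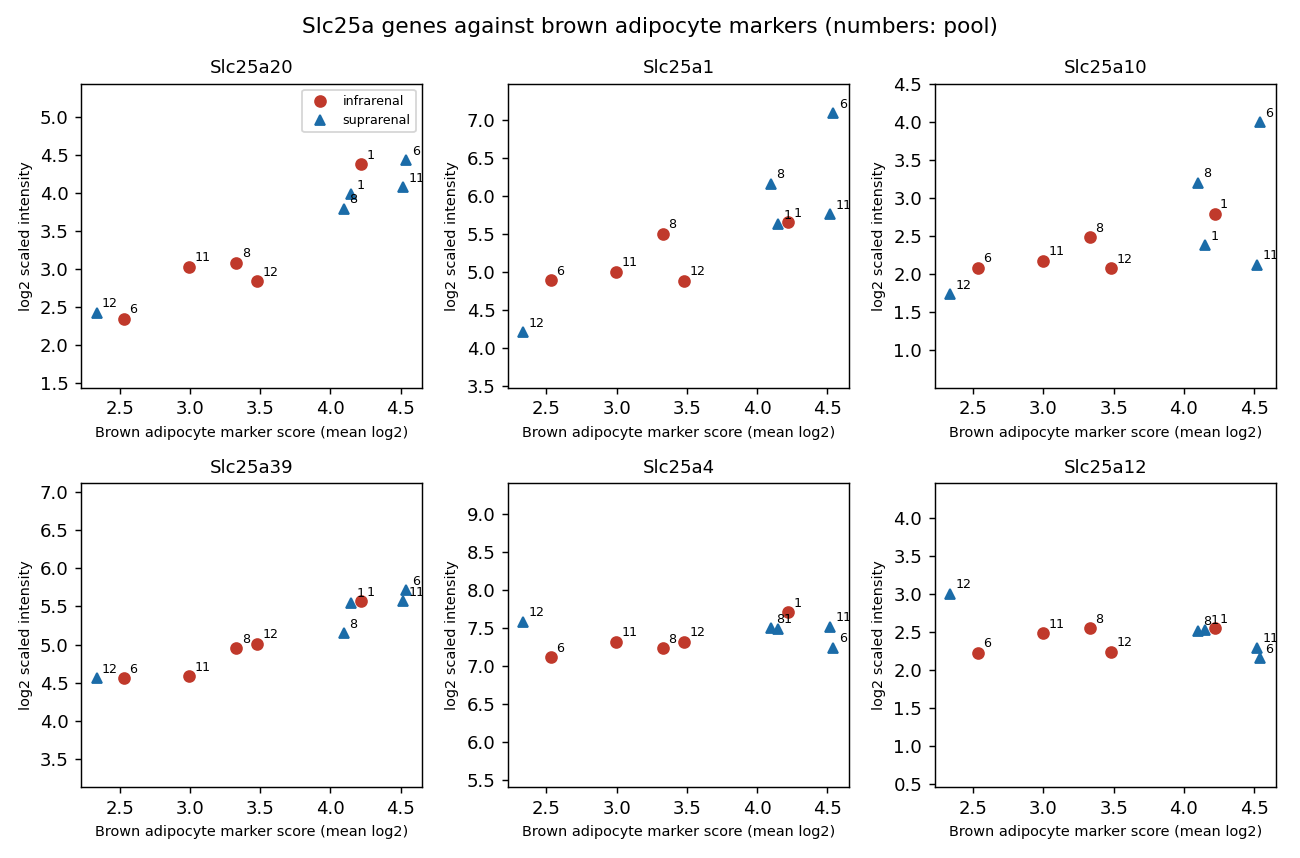
Log2 scaled intensity of 6 Slc25a genes on each array (vertical) against the brown adipocyte marker score, the mean log2 intensity of the markers measured on all arrays (horizontal); circles are infrarenal, triangles suprarenal, numbers are pools. Slc25a20 and Slc25a39 are lowest on infrarenal array 6 and suprarenal array 12, the arrays of lowest score. Slc25a4 is nearly level and Slc25a12 is highest on suprarenal array 12. Arrays of a pool share animals.

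Slc25a39 and Slc25a12 were picked for that plot after their values were seen. The readings did not follow the score throughout. Slc25a20 read 2.84 on infrarenal array 12 but 3.03 on infrarenal array 11, where the score was lower. Slc25a10 was highest on the array of highest score and lowest on that of lowest score. Yet it read 2.12 on suprarenal array 11 (score 4.52), close to its 2.08 on infrarenal array 6 (score 2.53). Slc25a39 read 5.57, 4.55, 4.95, 4.58 and 5.01 on infrarenal arrays and 5.55, 5.72, 5.15, 5.57 and 4.56 on suprarenal arrays. Slc25a12, the aspartate-glutamate carrier of muscle and brain, read 2.55, 2.23, 2.55, 2.49 and 2.24 on infrarenal arrays and 2.54, 2.16, 2.52, 2.30 and 3.01 on suprarenal arrays. On this probe Slc25a12 was highest on suprarenal array 12, where the brown adipocyte score was lowest and the skeletal muscle markers were brightest. The gene's second, dimmer probe went the other way in pool 12, with a difference of 0.464 against -0.761. A link to skeletal muscle was not tested.

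Carriers of a shared substrate were compared pair by pair, as the difference of their regional differences. Of 6 pairs tested with an exact two-sided sign-flip permutation test over 5 pools, which cannot go below p = 0.062, 0 passed, and every adjusted p was 0.812. The widest gap lay between the glutathione carriers Slc25a39 and Slc25a40 (-0.72, 95% interval -2.18 to 0.75), where Slc25a40 is a dim gene. The ADP/ATP exchangers Slc25a4 and Slc25a5 differed by 0.091 (-0.29 to 0.47), and the aspartate-glutamate carriers Slc25a12 and Slc25a13 by 0.077 (-0.58 to 0.73). These intervals leave room for differences in either direction.

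Genes that work beside the carriers lay mostly below 0 as well, and 0 passed after adjustment. All of them lay outside the dimmest 30% of probes, where 66.5% of genes were below 0, against 60.4% of all genes. Of the ATP synthase, porin and creatine kinase genes that make, pass or use the nucleotides carried by Slc25a4 and Slc25a5, 11 of 11 lay below 0 (median -0.31). An unadjusted p under 0.05 was reached by 5 of them. On that side 5.89% of all genes reached it, and 1023 of the 14086 genes outside the dimmest 30%. The outer membrane channels Vdac2 and Vdac1 lay at -0.30 ± 0.09 and -0.32 ± 0.10. Of the carnitine shuttle and beta-oxidation genes 8 of 9 measured lay below 0 (median -0.50), Acadvl, the first dehydrogenase of long-chain beta-oxidation, at -0.50 ± 0.21 and Cpt1b at -0.85 ± 0.44. Of the enzymes of the malate-aspartate shuttle and of citrate use 9 of 9 lay below 0 (median -0.51), with the cytosolic aminotransferase Got1 at -0.51 ± 0.16 and the matrix dehydrogenase Mdh2 at -0.39 ± 0.18. Iron-sulphur and haem genes lay below 0 for 6 of 8 (Fech -0.23 ± 0.08, Alas1 -0.36 ± 0.16). Regulators of mitochondrial biogenesis did so for 7 of 8 (Gabpa -0.36 ± 0.12 and Tfam, which packs mitochondrial DNA, -0.22 ± 0.11). Other inner membrane importers did so for 5 of 6 (the calcium channel Mcu -0.22 ± 0.11, the pyruvate carrier subunit Mpc1 -0.44 ± 0.24). Carriers of the same family under other symbols were below 0 in 4 of 4, with Mtch1 at -0.22 ± 0.10 and Mtch2 at -0.35 ± 0.19. Ucp1, the uncoupler of brown fat, lay at -0.57 ± 0.67, with pool differences from -2.575 in pool 6 to 2.646 in pool 12. Each of these lists had its lowest median in pool 6, from -1.76 to -0.46. In pool 12 the median was 0.605 for beta-oxidation, 0.394 for malate-aspartate and citrate enzymes and 0.681 for the other-symbol carriers. It was also above 0 for biogenesis (0.254) and iron-sulphur and haem genes (0.067). It was below 0 for the ATP synthase, porin and creatine kinase genes (-0.15) and the other importers (-0.098).

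Of the 9 genes with a second probe, 5 had the same sign on both and 4 did not. Slc25a33 gave the same value on both, while Slc25a12 read -0.090 on its bright probe and 0.26 on the dimmer, Slc25a23 -0.11 and 0.26, and Slc25a24 0.0090 and 0.17. Slc25a38 differed by -0.056 on its bright probe and by -0.19 ± 0.07 on its second (unadjusted p = 0.0268).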

How the data were processed

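RNA of 10 aortic segments, 2 from each of 5 pools, was measured on 1 single-colour array each. Per the labels' protocols, biotin-labelled cRNA was made from 0.34 to 0.54 µg of RNA and detected by Cy5-streptavidin. As deposited by the authors, each value is a linear intensity already scaled to its array (medians 1.001 to 1.003, from the values). How the arrays were scanned, background-corrected and scaled is not given in the sources. Of the deposited values, 1968 were missing and 1755 at or below 0. Intensities under 0.0278 (the percentile 1 of positive values) were raised to it, 5328 values in all, and log2 was taken. A probe needed 3 values in each region, which kept 36061 of 36227 and dropped 166. Probes were named from the platform annotation through Entrez identifiers (21487 of 21615 single-symbol probes matched; 681 had several symbols and 13931 none).

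The regional contrast was fitted in R 4.3.3 by limma 3.58.1 (lmFit, eBayes, variance trend), pool as block, two-sided, with Benjamini-Hochberg adjustment over all probes at 0.05. The pairing rests on the series' design, in which each pool of mice was divided into both segments, with the number in the sample titles read as the pool. The 2 arrays of a pool deviated from the group means with correlations of 0.045 (pool 1), 0.0062 (6), -0.033 (8), -0.053 (11) and -0.092 (12). Members and gene lists were chosen with earlier results of these data known. Named genes were all carriers by role; full array values went to Slc25a4, Slc25a20, members of the same sign in all pools and the 6 of widest range among the brighter. Partner lists gave up to 2 genes each by smallest p. Any other was chosen after its values were seen. Alternatives were no block, quantile normalization, an offset of 0.2701 (percentile 25), no dim probes, no trend, probe averages and each pool left out. Tested on simulated data of 35714 probes, the fit recovered 12%, 68%, 76% and 84% of changes of 0.5, 1, 2 and 3 log2 units (50 each), with 6 false calls. The simulated noise was independent between probes, without the swings that many genes share on these arrays. The recovery in the real data may therefore differ.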

Additional observations from a re-analysis of the deposited data

Results flagged for a closer look

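In each region, 5 arrays were searched for a single array far from the others. Of 104 groups of 5 values, 6 had such an array, where chance gives about 5.2 (1 in 20). Slc25a4 read 7.24 on suprarenal array 6, below the other suprarenal arrays at 7.49 to 7.58. Slc25a5 read 6.74 on suprarenal array 12, below the others at 7.04 to 7.15. Slc25a25 read 0.41 on infrarenal array 11, below the others at 0.61 to 0.69, and Slc25a38 read 4.5 on infrarenal array 1, below the others at 4.76 to 4.86. Slc25a37, the iron importer, read 2.78 on suprarenal array 1, above the others at 1.65 to 1.97. The brown adipocyte marker score was 2.34 on suprarenal array 12, below the others at 4.10 to 4.54.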

How the results depend on the processing

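Without the replicate block, which pairs the regions of a pool, 3 carriers had an unadjusted p under 0.05 and 0 were called, as with the block. The count below 0, 34 of 43, is no check here. Dropping the block leaves the fitted difference of a gene measured on all arrays unchanged. No alternative called a carrier after adjustment; over the whole table, quantile normalization called 1 probe, higher in infrarenal aorta, and the other alternatives 0. Leaving out each pool in turn moved the count with an unadjusted p under 0.05 between 1 and 13, and the count below 0 between 32 and 37. Under quantile normalization the sign turned for Slc25a4 (0.023), Slc25a16 (0.024), Slc25a23 (0.0080), Slc25a28 (0.018), Slc25a38 (0.072), Slc25a47 (0.038) and Slc25a53 (-0.084); with all probes averaged, for Slc25a12 (0.087), Slc25a23 (0.075) and Slc25a53 (-0.21); with the offset, for Slc25a37 (-0.0010) and the pair Slc25a22 minus Slc25a18 (-0.21). Over the fits that leave out 1 pool, the range crossed 0 for Slc25a10 (-0.56 to 0.023), Slc25a12 (-0.16 to 0.078), Slc25a14 (-0.13 to 0.032), Slc25a15 (-0.22 to 0.10), Slc25a16 (-0.12 to 0.0030), Slc25a18 (-0.79 to 0.18), Slc25a21 (-0.15 to 0.57), Slc25a24 (-0.071 to 0.11), Slc25a25 (-0.17 to 0.10), Slc25a27 (-0.12 to 0.28), Slc25a28 (-0.14 to 0.039), Slc25a30 (-0.35 to 0.039), Slc25a37 (-0.082 to 0.10), Slc25a40 (-0.0070 to 0.51), Slc25a43 (-0.077 to 0.095), Slc25a47 (-0.14 to 0.069) and Slc25a53 (-0.055 to 0.18). The pair ranges were -0.028 to 0.17 for Slc25a4 minus Slc25a5, -0.028 to 0.28 for Slc25a12 minus Slc25a13, -0.19 to 0.12 for Slc25a28 minus Slc25a37 and -0.49 to 0.60 for Slc25a22 minus Slc25a18. The cause was not tested. The pair Slc25a33 and Slc25a36 was not run. With 5 arrays a region, differences under about 0.3 log2 units are within the error of most carriers, and values near the floor of -5.17 have no order.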

Other observations

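Slc25a47 and Slc25a27 had yet other array patterns. Slc25a47 read 1.94, 2.43, 1.84, 2.04 and 1.96 on infrarenal arrays 1, 6, 8, 11 and 12 and 1.57, 2.44, 2.33, 1.94 and 2.14 on suprarenal arrays, with the highest values in pool 6 in both regions. Slc25a27 read 1.13, 1.10, 1.6, 1.02 and 1.46 on infrarenal arrays and 1.82, 0.94, 0.69, 1.31 and 1.12 on suprarenal arrays, where suprarenal arrays 1 and 8 set both ends of its range. Macrophage markers, the genes of resident immune cells, summed to 200 to 256 on infrarenal arrays and 254 to 352 on suprarenal arrays. All 6 measured genes had a fitted difference below 0, against 60.4% of all genes, and 5 were lower in all 5 pools, against 6.23%. Of the 6 genes, 4 had an unadjusted p under 0.05, against 5.89% of all genes on that side, and 0 passed after adjustment.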
